A study of Homo sapiens with 6 samples.

Results

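The liver X receptors (LXR) and the genes through which a cell exports and stores cholesterol were examined in 22Rv1-ABHD5 cells, human castration-resistant prostate cancer cells in which doxycycline (Dox) switches on an ABHD5 transgene. The 10 genes were chosen by name and are NR1H2, NR1H3, RXRA, ABCA1, ABCG1, MYLIP, APOE, LPCAT3, SOAT1 and NCEH1. All 10 were found among the 27470 genes of the deposited count table. RNA was sequenced from the 3ʹ end of transcripts in 3 libraries of cells without Dox (labelled Control) and 3 of cells with Dox (labelled OE), each cultured for 48 h. The dose of Dox in these libraries is not given in the sources used here. Both groups carry the transgene, which was delivered by a lentivirus and followed by selection with G418, and the methods name no single clone. No parent cells with Dox were analysed here, so ABHD5 and Dox cannot be told apart. The labels number the replicates without saying whether they were separate cultures, so the p-values measure the spread between these libraries.

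LXRα (encoded by NR1H3) and LXRβ (NR1H2) are nuclear receptors that sense oxysterols and desmosterol, and they bind DNA as heterodimers with a retinoid X receptor such as RXRα (RXRA). Their classical target genes lower the cholesterol load of a cell. ABCA1 and ABCG1 pump cholesterol to lipid-poor apolipoproteins and to HDL, APOE is an apolipoprotein that accepts it, MYLIP (also called IDOL) marks lipoprotein receptors for degradation, and LPCAT3 puts polyunsaturated chains into phospholipids. SOAT1 (ACAT1) esterifies cholesterol for storage in lipid droplets, and NCEH1 hydrolyses cholesteryl esters.

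The receptor pair binds a direct repeat of a short motif with 4 bases between its copies, called DR4, and the promoters of the LXR targets that rose are shown because that element is defined by its letters. The consensus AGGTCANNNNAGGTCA was searched on both strands of RefSeq promoters (build GRCh38.p14, 300 bases each, of which the last 50 follow the start), which were matched for 9 of the 10 genes. The table holds 15 promoters of these genes. None of them is of ABCG1, and bases outside the 300 were not searched, so elements farther away would be missed. A match with at most 2 mismatches over the 12 scored bases was present in 2.34% of all 35116 promoters in the table. Among the 15, it was present only in that of ABCA1, on the strand opposite to the one printed, from base -69. The other 14 promoters had 3 to 5 mismatches at their best position. The letters TATAA, searched on the printed strand of the last 50 bases before the start, were in 4.74% of all promoters. They began at base -31 in ABCA1 and in the APOE promoter printed here. In the promoter of NCEH1, which fell with Dox and is not printed, they began at base -29. Capitals mark both copies of the motif in the DR4 match and the letters TATAA. The ABCA1 promoter is chr9:104928106-104928405 on the minus strand, that of APOE chr19:44905546-44905845 on the plus strand and that of MYLIP chr6:16128836-16129135 on the plus strand.
ABCA1: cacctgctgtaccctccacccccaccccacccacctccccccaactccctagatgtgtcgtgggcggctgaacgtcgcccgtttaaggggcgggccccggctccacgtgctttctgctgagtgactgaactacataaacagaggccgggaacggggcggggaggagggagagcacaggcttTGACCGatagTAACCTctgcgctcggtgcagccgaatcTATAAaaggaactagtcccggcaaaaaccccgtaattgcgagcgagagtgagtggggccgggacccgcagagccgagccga
APOE: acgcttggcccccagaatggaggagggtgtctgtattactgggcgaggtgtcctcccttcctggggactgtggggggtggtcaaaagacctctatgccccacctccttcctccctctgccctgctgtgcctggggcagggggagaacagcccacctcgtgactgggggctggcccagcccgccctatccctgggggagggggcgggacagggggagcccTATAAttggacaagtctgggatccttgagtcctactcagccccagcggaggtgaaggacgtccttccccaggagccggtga
MYLIP: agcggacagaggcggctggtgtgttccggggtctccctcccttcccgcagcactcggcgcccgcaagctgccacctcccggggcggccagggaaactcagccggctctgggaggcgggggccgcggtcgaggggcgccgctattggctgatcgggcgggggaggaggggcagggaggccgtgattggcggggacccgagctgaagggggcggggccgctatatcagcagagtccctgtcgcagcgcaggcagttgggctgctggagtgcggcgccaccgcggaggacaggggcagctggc

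Library totals ranged from 3394672 to 7271771 counts. ABHD5 itself was at 58.0 to 63.5 CPM (counts per 1000000 of the library total, after TMM normalization) without Dox and 91.7 to 130.8 CPM with Dox, with no overlap. Its log2 fold change was 0.91 (standard error 0.15). The 3ʹ end of the transgene transcript is not described in the sources used here. Whether its reads were counted on ABHD5 is therefore not known, and this value may not measure the whole induction. The share of reads that fell on no gene was 32.5% to 34.6% in the Control and 35.6% to 39.5% in the OE libraries, and its part in the results was not tested. All 10 prostate luminal markers examined were detected, and 6 of them fell with Dox, including SLC45A3 (log2 fold change -1.67). KLK3, HOXB13, KRT8 and FOLH1 did not pass the test given below, by which 13.7% of all genes tested were lower. The summed level of the 10 markers was 1471 to 1547 CPM without Dox and 906 to 1004 CPM with Dox. Of 14 markers of immune, fibroblast, endothelial and basal cells, 6 had no count in any library, namely CSF1R, PECAM1, VWF, CDH5, KRT5 and KRT14. The summed level of the 14 was 5.89 to 9.60 CPM without Dox and 6.40 to 10.6 CPM with Dox. COL1A1, one of the 2 tested, rose by 1.22 on the log2 scale. It lost its call without Control replicate 2 (1.02), Control replicate 3 (1.08), OE replicate 1 (1.27) or OE replicate 3 (0.87). The part of these markers in the results was not tested.

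With Dox, APOE rose about 50.6-fold in mean CPM, MYLIP 2.08-fold and NR1H2 1.42-fold, whereas SOAT1 and NCEH1 fell. ABCA1 was 4.26-fold higher in mean CPM but was sequenced too thinly for the default count filter. NR1H3, RXRA, ABCG1 and LPCAT3 did not pass the test. The test was edgeR's quasi-likelihood test on the counts of 12233 genes, with a Benjamini-Hochberg adjusted p under 0.05 as the threshold. Of the 9 genes that passed the filter, 3 were higher and 2 lower with Dox, for a median log2 fold change of 0.18. Over all genes tested, 25.5% passed the threshold, 11.9% as higher and 13.7% as lower, and the median log2 fold change was 0.02. With library totals in place of TMM the median over all genes was 0.14, and 65.7% of the genes that passed were higher, against 46.4% with TMM. In bulk RNA, fewer cells of a type and less RNA per cell cannot be told apart.

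**Figure D1:**
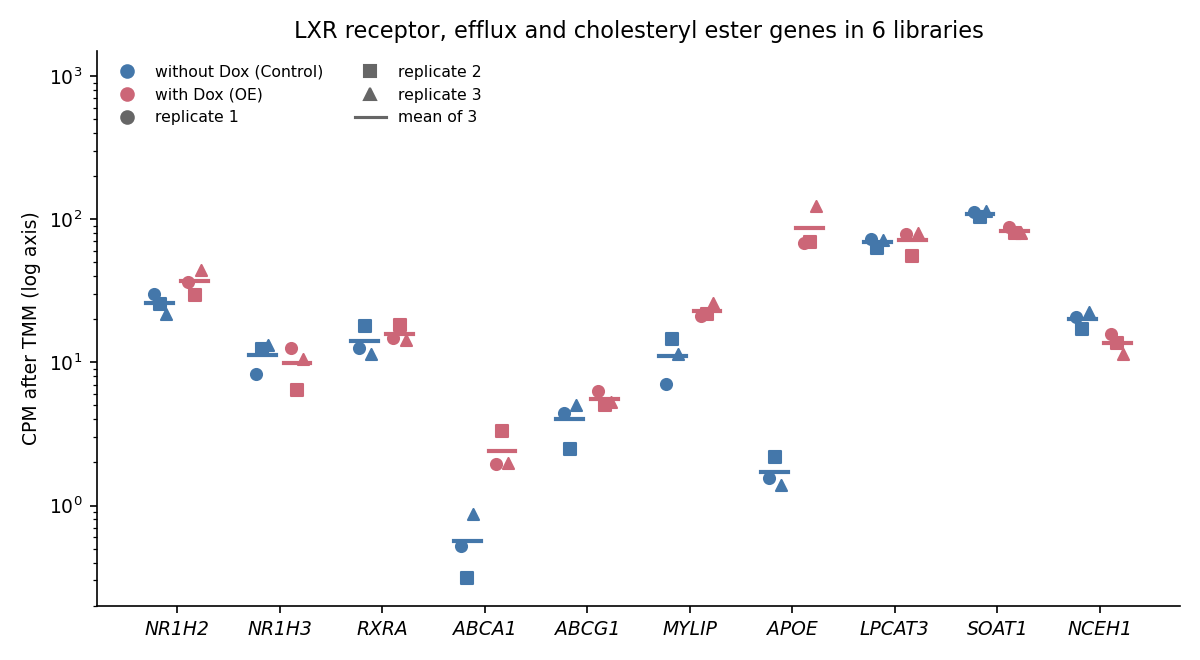
Levels of the 10 genes in each library, in CPM after TMM normalization on a log axis, with Control libraries in blue and OE libraries in red, replicate numbers as marker shapes and the mean of 3 as a line. APOE lies near 1.71 CPM without Dox and near 86.6 CPM with Dox, and the SOAT1 and NCEH1 libraries with Dox all lie below those without.

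**Figure D2:**
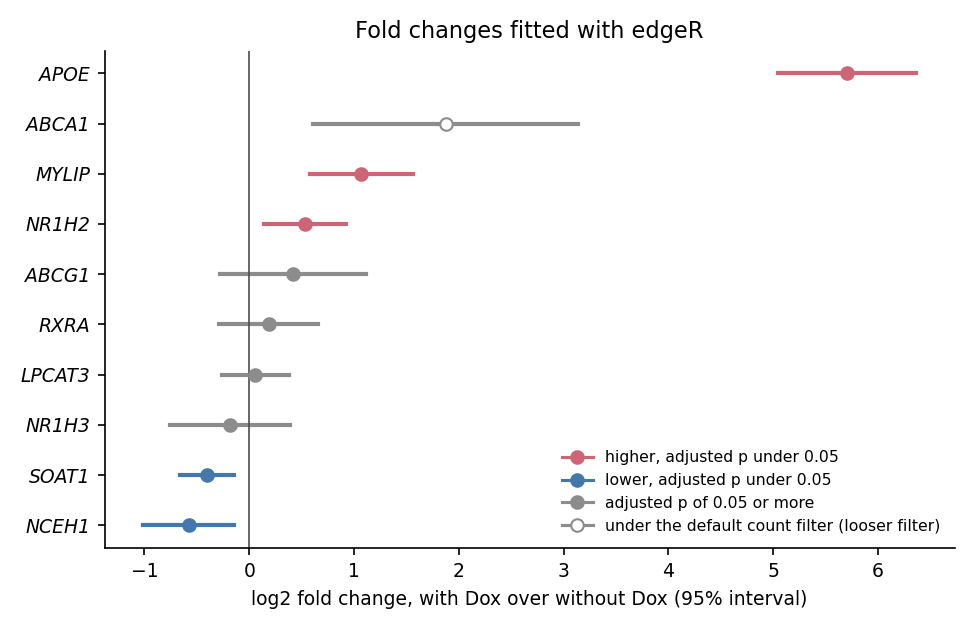
Log2 fold changes (with Dox over without Dox) from edgeR with 95% intervals, coloured by the adjusted p. ABCA1, drawn open, comes from a fit with a looser count filter, and the intervals of ABCG1, RXRA, LPCAT3 and NR1H3 cross 0.

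Among the receptors, NR1H2 (LXRβ) was the one that passed the test. It is on chromosome 19 of hg38 from 50329653 to 50383388 (GENCODE 44). It was measured at 30.0, 25.7 and 21.8 CPM in Control replicates 1, 2 and 3 and at 36.3, 29.5 and 44.4 CPM in OE replicates 1, 2 and 3. The lowest library with Dox lay just under the highest without, so that the groups overlapped. The log2 fold change was 0.53 ± 0.18 (standard error), at an adjusted p of 0.0417 by edgeR's quasi-likelihood test. The call was lost without Control replicate 2 (0.53), Control replicate 3 (0.41), OE replicate 1 (0.54) or OE replicate 3 (0.36). It was also lost with DESeq2 (adjusted p = 0.0575) and with limma on the deposited normalized values.

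NR1H3, on chromosome 11 from 47248300 to 47269033, had 8.36, 12.4 and 13.3 CPM without Dox and 12.6, 6.40 and 10.6 CPM with Dox. Its groups overlapped widely, with a log2 fold change of -0.18 and a 95% interval from -0.75 to 0.38. RXRA, on chromosome 9 from 134317098 to 134440585, had 12.5, 18.0 and 11.5 CPM without Dox and 14.8, 18.4 and 14.3 CPM with Dox. Its log2 fold change was 0.18, with an interval from -0.29 to 0.66. These intervals hold rises and falls of moderate size, so a shift of that size in either receptor was not detectable here.

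ABCA1 (chromosome 9, 104781006 to 104928155), which loads cholesterol onto lipid-poor apolipoproteins and whose promoter holds the DR4 match printed above, was counted 2, 1 and 5 times in Control replicates 1, 2 and 3. With Dox it was counted 9, 12 and 15 times. In CPM, these were 0.52, 0.31 and 0.87 against 1.96, 3.34 and 1.97, so every library with Dox lay above every library without. Control replicates 1 and 2 were under the limit of detection of 3 counts, which is 0.394 to 0.930 CPM over the 6 libraries. In a fit with a minimum count of 3, chosen after the data were seen, the log2 fold change was 1.88 ± 0.60 (standard error), at an adjusted p of 0.0309 by edgeR's quasi-likelihood test. In that fit 10.2% of genes were higher with Dox. The adjusted p rose above 0.05 without Control replicate 1 (1.79), Control replicate 2 (1.65) or OE replicate 2 (1.62).

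ABCG1, the transporter that passes cholesterol to HDL, lies on chromosome 21 from 42199689 to 42297244. It had 4.44, 2.48 and 5.06 CPM without Dox and 6.31, 5.01 and 5.25 CPM with Dox. OE replicate 2 lay just under Control replicate 3, so the groups overlapped, and the log2 fold change of 0.42 (standard error 0.33) did not pass the test (adjusted p = 0.390, edgeR's quasi-likelihood test). Its 95% interval ran from -0.28 to 1.12.

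APOE is on chromosome 19 from 44905791 to 44909393. Its counts were 6, 7 and 8 in the libraries without Dox and 311, 249 and 935 in those with Dox. In CPM, they were 1.57, 2.17 and 1.40 against 67.6, 69.3 and 122.8. The library with the most APOE was OE replicate 3, and the least APOE with Dox was still far above the most without. The log2 fold change was 5.71 ± 0.31 (standard error), at an adjusted p of 5.431e-10 by edgeR's quasi-likelihood test, and it ranked 14 of 12233 from the top. Leaving out any 1 library moved it to between 5.35 and 5.86. APOE passed the count filter only through the libraries with Dox, where it was higher, and its adjusted p carries that limit.

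APOE belongs to a cluster of apolipoprotein genes, whose other members were examined after the value of APOE was seen. APOC1 starts 8.46 kb downstream of the APOE start. It had 59, 73 and 106 counts without Dox and 63, 45 and 112 with Dox, for a log2 fold change of -0.45 that did not pass the test (adjusted p = 0.124, edgeR's quasi-likelihood test). APOC2 and APOC4 had no count in any library. Of the 10 other genes within 100 kb, APOC1 among them, 6 were tested, of which BCAM (0.86) was higher and TOMM40 (-0.62) was lower, the latter not without Control replicate 3 (-0.49). Over all genes tested, 11.9% were higher and 13.7% lower. RELB, a subunit of NF-κB, had the highest log2 fold change of the 6, at 1.16 (adjusted p = 0.0593, same test).

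**Figure D3:**
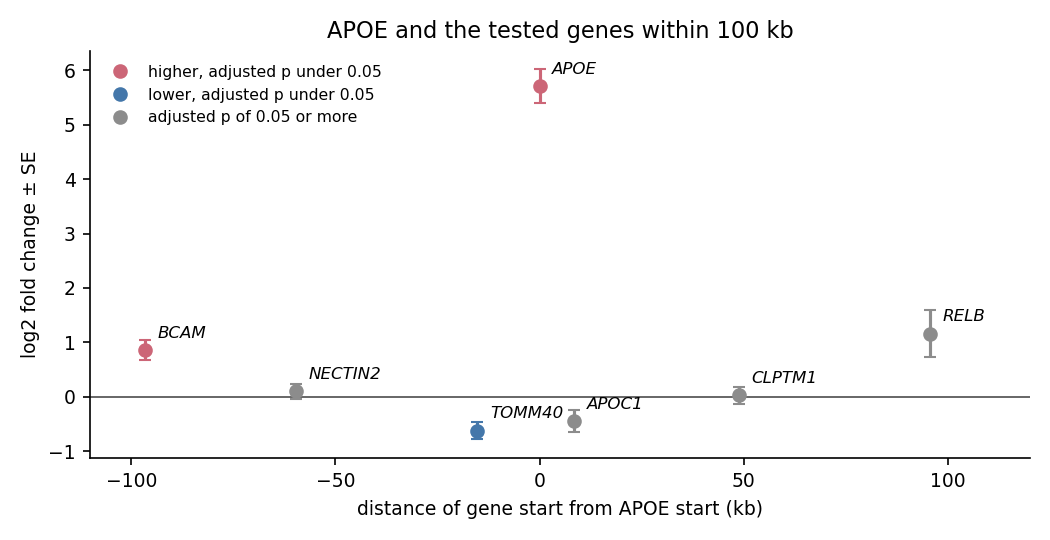
Log2 fold change with its standard error for APOE and the 6 tested genes within 100 kb, against the distance of each gene's start from that of APOE in kb. APOE stands at 5.71 and the others between -0.62 and 1.16.

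MYLIP, a ubiquitin ligase for lipoprotein receptors, lies on chromosome 6 from 16129086 to 16148248. It had 7.05, 14.6 and 11.5 CPM without Dox and 21.1, 21.7 and 26.0 CPM with Dox. All libraries with Dox were above all libraries without, among which replicate 1 was the lowest. The log2 fold change was 1.07 ± 0.23 (standard error), at an adjusted p of 0.00255 by edgeR's quasi-likelihood test, and it lay between 0.83 and 1.27 when any 1 library was left out. VLDLR and LRP8, receptors that MYLIP is known to mark, had log2 fold changes of 0.78 and -0.54 that did not pass the test (adjusted p = 0.0699 and 0.135, edgeR's quasi-likelihood test). VLDLR passed without OE replicate 2 (1.02), the lowest library with Dox.

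LPCAT3 lies on chromosome 12 from 6976185 to 7018477. It had 72.4, 62.6 and 71.9 CPM without Dox and 79.4, 55.4 and 79.6 CPM with Dox. The replicate 2 library was the lowest of both groups, and the groups overlapped. The log2 fold change was 0.06, with an interval from -0.26 to 0.38. Its counts are uncertain, since 758 of the last 1000 bases of the gene are also exon of EMG1 on the opposite strand and the use of strand in counting is not given in the sources used here.

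SOAT1 and NCEH1, 2 of the enzymes that make or hydrolyse cholesteryl esters, both passed as lower in the main fit. SOAT1, on chromosome 1 from 179293714 to 179358680, had 111.5, 103.3 and 113.3 CPM without Dox and 87.9, 80.4 and 80.0 CPM with Dox. Its 2 groups did not overlap, and its spread within a group was small against the gap. The log2 fold change was -0.40 ± 0.12 (standard error), at an adjusted p of 0.0233 by edgeR's quasi-likelihood test. NCEH1, on chromosome 3 from 172630249 to 172711218, had 20.6, 17.1 and 22.3 CPM without Dox and 15.9, 13.6 and 11.4 CPM with Dox. These also did not overlap, with a log2 fold change of -0.58 ± 0.21 (standard error), at an adjusted p of 0.0482 by edgeR's quasi-likelihood test. SOAT1 lost its call without Control replicate 1 (-0.41), Control replicate 3 (-0.38) or OE replicate 3 (-0.38). NCEH1 lost it without Control replicate 1 (-0.57), Control replicate 3 (-0.49), OE replicate 2 (-0.59) or OE replicate 3 (-0.45). With library totals in place of TMM, neither passed (adjusted p = 0.0965 for SOAT1 and 0.110 for NCEH1, edgeR's quasi-likelihood test), and NCEH1 lost its call in 9 of 15 alternatives in all. Beside those above, these were DESeq2 (adjusted p = 0.0796), upper-quartile normalization (0.0712), at least 10 counts in every library (0.0590) and the deposited normalized values with limma (0.0703).

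Ratios of counts within a library do not depend on the scaling between libraries, so 3 pairs of related genes were compared in that way. In an exact permutation test of 3 libraries against 3, p cannot go below 0.1, so none of them could pass 0.05. The log2 ratio of SOAT1 to NCEH1 was 2.45 ± 0.13 without Dox and 2.60 ± 0.18 with Dox (SD, n = 3 each, two-sided exact permutation p = 0.4). A shift in the ratio of SOAT1 to NCEH1 was not detectable. The log2 ratio of ABCA1 to ABCG1 went from -2.58 ± 0.20 to -1.20 ± 0.56 (SD, n = 3 each, exact permutation p = 0.1, the smallest possible), and its groups did not overlap. It rests on few ABCA1 counts, 2 and 1 in Control replicates 1 and 2, which are under the limit of 3. The log2 ratio of NR1H3 to NR1H2 was -1.20 ± 0.57 without Dox and -1.92 ± 0.35 with Dox (SD, n = 3 each, exact permutation p = 0.2). Adjusted over the 3 pairs, these p-values were 0.4, 0.3 and 0.3.

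**Figure D4:**
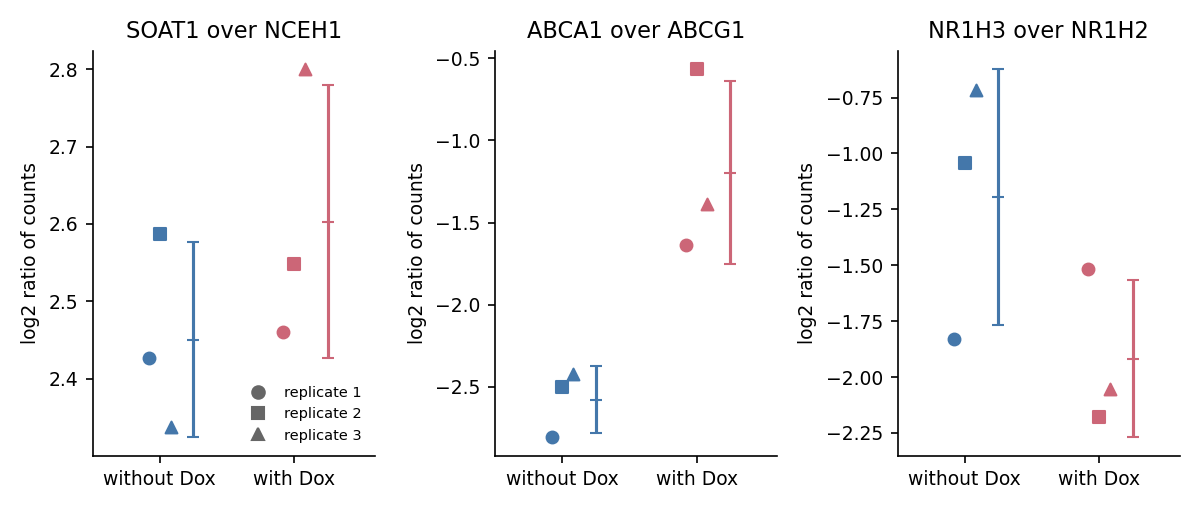
Log2 ratios of counts within each library for SOAT1 over NCEH1, ABCA1 over ABCG1 and NR1H3 over NR1H2, as points for the replicates with mean and SD beside them. In the middle panel the OE libraries lie above the Control libraries, and in the outer panels the groups overlap.

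Over all genes tested, 11.9% were higher and 13.7% lower with Dox. Of 18 LXR target genes outside the 10, 9 were tested, 1 rose and 1 fell, and the median log2 fold change was -0.29. The riser was MLXIPL, which encodes the glucose-responsive factor ChREBP, at 0.68 (adjusted p = 0.0332, edgeR's quasi-likelihood test). It lost its call without Control replicate 1 (0.75), 2 (0.62) or 3 (0.65) or OE replicate 2 (0.54) or 3 (0.60). SCD, the stearoyl-CoA desaturase, fell by 1.13. SREBF1, the lipogenic LXR target, had a log2 fold change of 0.21 with an interval from -0.13 to 0.54. Among 18 tested partners and coregulators of LXR, 1 rose and 1 fell, and the riser was the coactivator gene NCOA1, at 0.81. The remaining 16 did not pass, and their list had a median of 0.04.

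Of 8 tested genes of oxysterol and desmosterol metabolism, which includes enzymes that make or remove LXR ligands, 4 fell and 0 rose, and the median log2 fold change was -0.37. Over all genes tested, 13.7% fell and 11.9% rose. EBP, which acts late in cholesterol synthesis, fell by 1.42, and SQLE, which makes squalene epoxide, by 1.14. DHCR7, the last enzyme of the branch through 7-dehydrocholesterol, fell by 0.44, a call lost without Control replicate 1 (-0.37) or OE replicate 1 (-0.46) or 2 (-0.35). CYP27A1, CH25H, CYP46A1, CYP7B1 and CYP11A1, which oxidize cholesterol or oxysterols, had at most 3 counts in any library, so no change could be read in them.

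In lipoprotein uptake, 2 of 13 tested genes rose and 2 fell (11.9% and 13.7% over all genes tested), around a median log2 fold change of -0.10. LRP1, a receptor for APOE-bearing particles, rose from 8, 2 and 1 counts without Dox to 31, 22 and 85 with Dox. Its log2 fold change was 3.19 ± 0.52 (standard error), at an adjusted p of 2.130e-04 by edgeR's quasi-likelihood test, 4.49 without Control replicate 1 and 2.53 without Control replicate 3. USP2, a deubiquitinase that opposes MYLIP, rose by 1.50, a call lost without Control replicate 1 (1.24) or 3 (1.54) or OE replicate 3 (1.24). Both LRP1 and USP2 passed the count filter only through the libraries with Dox, where they were higher, and their calls carry that limit. SCARB1, the HDL receptor SR-BI, fell by 0.49, a call lost without OE replicate 2 (-0.36).

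Of 18 tested genes of intracellular cholesterol transport, 4 rose and 2 fell (11.9% and 13.7% over all genes tested), with a median of 0.13. ANXA6, an annexin of late endosomes, rose by 1.33, from 46.0 ± 6.27 to 114.9 ± 12.2 CPM (SD, n = 3 each). OSBPL9 and STARD3, which move sterols at membrane contact sites, rose by 0.67 and 0.56. STARD10, a phospholipid transfer protein, fell by 0.63, and STARD4, a sterol carrier, by 0.53. The call of STARD4 was lost without Control replicate 1 (-0.53) or 3 (-0.42) or OE replicate 3 (-0.41).

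Among genes of sterol export and HDL assembly, 3 of 11 tested rose and 2 fell, around a median of 0.30. The shares over all genes tested were 11.9% and 13.7%. CAV1, the caveolar coat gene, rose by 1.96, from 3.18 ± 0.62 to 12.4 ± 3.42 CPM (SD, n = 3 each). The ABCA1 relatives ABCA5 and ABCA7 rose by 0.89 and 0.56, whereas ABCA3, a phospholipid transporter, had a log2 fold change of -0.41. ABCA7 lost its call without Control replicate 3 (0.40) or OE replicate 3 (0.46). ABCA3 lost it without Control replicate 1 (-0.43) or 2 (-0.34) or OE replicate 1 (-0.42) or 3 (-0.37). LIPG, a lipase that acts on HDL, fell by 1.83. It passed the count filter only through the libraries without Dox, where it was higher, and its call carries that limit. APOA1, the main protein of HDL, had at most 5 counts in a library.

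Of 7 tested genes of cholesteryl ester and lysophospholipid turnover outside the 10, 2 rose and 0 fell, around a median of 0.22. Over all genes tested, 11.9% rose and 13.7% fell. LIPA, the lysosomal acid lipase that hydrolyses cholesteryl esters, rose from 31.0 ± 6.60 to 49.9 ± 3.66 CPM (SD, n = 3 each), by 0.68 on the log2 scale. LPCAT1, an acyltransferase that favours saturated chains, rose by 0.64, a call lost without Control replicate 1 (0.66) or 2 (0.53) or OE replicate 1 (0.62). SOAT2, the other cholesterol acyltransferase, had no count in any library.

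**Figure D5:**
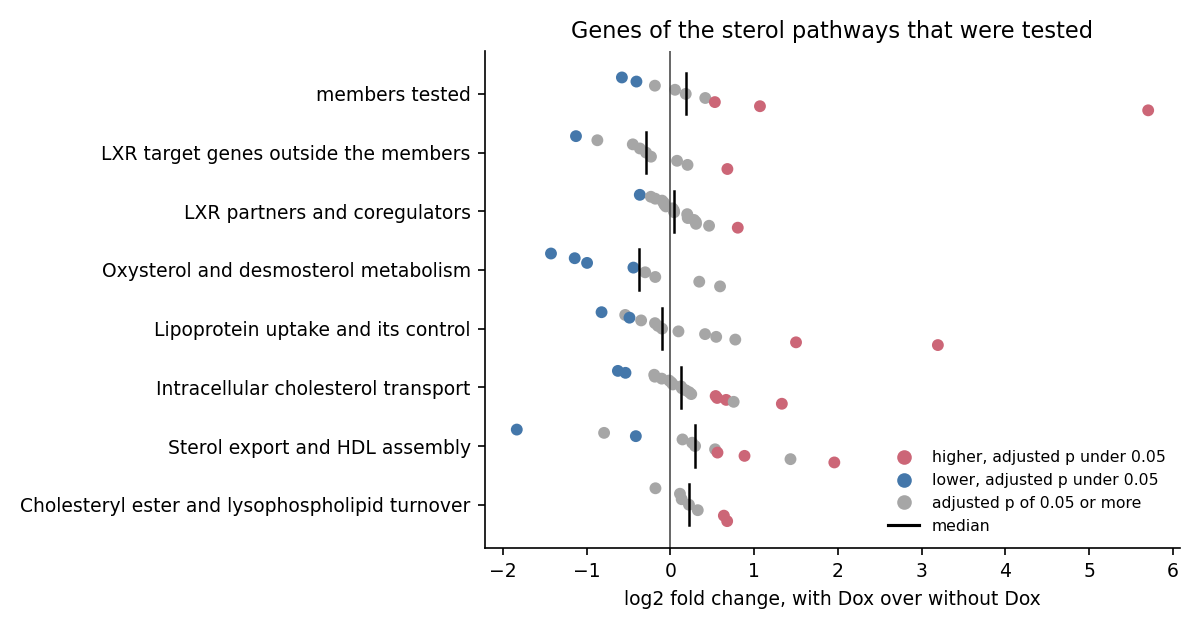
Log2 fold changes of the tested genes of each sterol list, 1 point a gene, coloured by the adjusted p, with the median of each list as a black line. APOE at 5.71 and LRP1 at 3.19 lie farthest to the right, and the list of oxysterol and desmosterol metabolism has no gene that passed as higher.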

How the data were processed

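Per the labels and the methods, the authors demultiplexed reads of QuantSeq 3ʹ libraries with CASAVA 1.8.2, used STAR and build hg38 for mapping, and deposited raw read counts for each gene symbol. HTSeq is named in the submitters' processing notes. Neither the annotation nor whether counting used strand is given in the sources used here, and the labels and the methods name different versions of the kit. The authors also deposited, for each library, a normalized signal of unstated method, used here only as an alternative, without the 27 rows whose names differed. Rows that name no gene stayed out of totals and tests.

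Counts of all 6 libraries were tested with edgeR 4.0.16 (TMM, filterByExpr, quasi-likelihood test) in R 4.3.3, adjusted over all 12233 genes. Standard errors are the log2 fold change over the root of F. Alternatives used DESeq2 1.42.0, limma 3.58.1, other scalings and filters, a replicate block and leaving out 1 library at a time. Scripts were tested on simulated data. Pairs of replicates differed by more than sampling noise (chi-square per degree of freedom 4.21 to 12.6). Intervals come from the quasi-likelihood fit and include the spread between libraries, while the limit of 3 counts covers counting of reads alone. Reads were counted without molecular identifiers. Ratios had 0.5 added to each count.

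The 10 genes and the lists were chosen with earlier results of these data known. Other genes named are up to 3 of each list in each direction with the smallest adjusted p under 0.05. Any further gene was chosen after its values were seen. Positions are those of GENCODE 44, on the same build hg38. Some genes of the lists are not reported here by name.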

Additional observations from a re-analysis of the deposited data

How the results depend on the processing

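In the main fit, 25.5% of all genes tested passed the threshold. Of 9 tested genes, 5 passed the threshold, against 3 with DESeq2, with library totals alone, with at least 10 counts in every library (a filter that removes APOE) and with the deposited normalized values, 4 with upper-quartile normalization, and 2 to 4 with each library left out. The lowest count, 2, was that without Control replicate 3 or without OE replicate 3, where APOE and MYLIP were left, and without Control replicate 1 it was 3. Except for the filter, the cause was not tested. APOE passed in each of the 14 alternatives that tested it, and MYLIP in each of 15. With a minimum count of 3, added after the data were seen, and with no filter (ABCA1 log2 fold change 1.88, adjusted p = 0.0373), ABCA1 was tested as well. With 1 library left out LPCAT3 ranged from -0.031 to 0.20, turning without Control replicate 2 (-0.013), OE replicate 1 (-0.022) or OE replicate 3 (-0.031), and NR1H3 from -0.37 to 0.011, turning without OE replicate 2. With library totals alone DHCR7, SCARB1, STARD4 and ABCA3 also lost their calls, whereas VLDLR (0.90) and RELB (1.28) passed. DESeq2 lost USP2 and COL1A1, and limma voom lost MLXIPL. With limma on the deposited normalized values MLXIPL and COL1A1 lost their calls, and with upper-quartile normalization ABCA3 did (-0.36).

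The genes that passed over the whole table numbered 3125, and 2181 to 3537 over the alternatives, of which 46.4% were higher with Dox, against 65.7% with library totals alone. The 3 ratios kept their direction in each alternative, of which the replicate block could not change it. Deviations from the group means correlated between libraries of the same replicate number at -0.01, 0.25 and 0.09. No threshold was set, so whether the numbers mark pairs was not decided. With the replicate block 3537 genes and 5 of the 9 passed. The block leaves the differences in the ratios the same by construction (1.38 for ABCA1 to ABCG1, -0.72 for NR1H3 to NR1H2 and 0.15 for SOAT1 to NCEH1).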
